A study of Homo sapiens with 9 samples.

Results

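Expression of 7 genes that encode partners of capicua repression and of transcriptional activation was examined: ATXN1, ATXN1L, SIN3A, EP300, CREBBP, BRD2 and BRD3. They were chosen by symbol, as ataxin-1 family and corepressor genes and as acetyltransferases and acetyl-lysine readers tied to the activation domains of NUTM1 and DUX4. Earlier results of these data were known when they were chosen. They are 7 of the 62700 genes in the count table. All 7 passed the abundance filter and were tested. Polyadenylated RNA was sequenced from HEK293T, an established line derived from human embryonic kidney and widely used for plasmid expression. One group of 3 libraries came from cells transfected with an empty vector, one group of 3 from cells given HA-CIC::DUX4, and one group of 3 from cells given HA-CIC(ex20)::NUTM1(ex6), here called CIC::NUTM1. Each transfection used 300000 cells, replicates were transfected on different days, and RNA was taken after about 48 hours. The fusions were expressed from transiently transfected plasmids, so each library averages cells that did and did not take up DNA, and a change in fewer cells cannot be told apart from a smaller change in every cell.

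Capicua (CIC) is an HMG-box repressor that binds short octamer sites near genes induced by receptor tyrosine kinase signalling. Ataxin-1 (ATXN1) and its paralogue ataxin-1-like (ATXN1L) bind capicua and act with it in repression, and SIN3A is the scaffold of a histone deacetylase corepressor complex. EP300 and CREBBP encode the paired acetyltransferases p300 and CBP. BRD2 and BRD3 encode BET proteins, which bind acetylated histones through bromodomains. In sarcomas CIC is fused to DUX4 or NUTM1, and both partners carry regions known to recruit p300 or CBP.

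Library totals were 16970771 to 33655445 counts, and scaling factors between libraries (TMM) ranged from 0.975 to 1.02. Replicates differed by more than counting noise, with a chi-square of 5.94 to 10.5 per degree of freedom over tested genes, so each library was counted separately. Of the markers chosen for the cell line, all but PAX8 were detected in every library, with VIM at 552 to 750.0 CPM (counts divided by TMM-scaled depth), and PAX8 had 0 counts in the 3 empty vector libraries. NEFM averaged 567, 360 and 347 CPM in empty vector, CIC::DUX4 and CIC::NUTM1 libraries. The blood, liver, keratinocyte and muscle markers PTPRC, CD3E, HBB, ALB, KRT5 and DES did not exceed 24 counts in any library, HBB and KRT5 being at 0 in all, and the leukocyte marker PTPRC averaged 0.0195, 0.412 and 0.909 CPM in the same order of groups. Whether these differences bear on the results was not tested. Transcripts of CIC and its fusion partners are not analysed here.

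The main result was a rise of ATXN1 with both fusions while its paralogue ATXN1L did not pass the test with either. ATXN1 was 1.78-fold higher with CIC::DUX4 and 2.75-fold higher with CIC::NUTM1 than with empty vector, and the fusions differed from each other. SIN3A rose with both fusions by less, 1.19-fold and 1.36-fold, and its CIC::DUX4 call was lost in 4 of 6 refits without 1 library. Against empty vector, CREBBP passed only with CIC::NUTM1 (1.24-fold), a call lost in 3 of 6 such refits. Between the fusions CREBBP did not pass (edgeR adjusted p = 0.0917). EP300, BRD2 and BRD3 did not pass the test in any comparison. With CIC::DUX4, 2 of 7 genes were higher and 0 lower at an adjusted p under 0.05, where 6.96% of the 17576 tested genes were higher, 1.27% lower and 8.24% called in either direction. With CIC::NUTM1, 3 of 7 were higher and 0 lower, where 11.5% of tested genes were higher, 3.83% lower and 15.3% called. Between the fusions 1 of 7 was higher with CIC::NUTM1, where 4.97% of tested genes were higher, 1.64% lower and 6.61% called. The 7 genes were chosen with earlier results of these data known, so their counts beside these shares are a description.

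The sequence upstream of annotated start sites is shown for ATXN1 and SIN3A, the genes that rose with both fusions, and for the paralogue ATXN1L. Capitals mark a capicua octamer. RefSeq windows of 250 bases before each start (GRCh38.p14) were searched on both strands for TGAATGAA, TGAATGGA, TCAATGAA and TCAATGGA. All 7 genes matched by symbol, with 13 start windows in total, and 2 of these windows held an octamer, 1 each. The search was made after the levels had been seen, and a match describes letters, not binding. Bases that GENCODE 29 annotates as exon were left off the end nearest the start, 31 in the first ATXN1 window and 27 in the SIN3A window. The sequences run 5′ to 3′ on the strand of the gene.
ATXN1, second start, chr6:16760185-16760434, minus strand: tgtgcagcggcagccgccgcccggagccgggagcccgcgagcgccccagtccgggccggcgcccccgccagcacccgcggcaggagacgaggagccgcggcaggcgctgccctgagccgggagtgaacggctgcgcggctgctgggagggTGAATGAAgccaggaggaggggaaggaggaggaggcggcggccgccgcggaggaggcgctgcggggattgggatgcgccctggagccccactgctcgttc
ATXN1, first start, chr6:16761492-16761710, minus strand: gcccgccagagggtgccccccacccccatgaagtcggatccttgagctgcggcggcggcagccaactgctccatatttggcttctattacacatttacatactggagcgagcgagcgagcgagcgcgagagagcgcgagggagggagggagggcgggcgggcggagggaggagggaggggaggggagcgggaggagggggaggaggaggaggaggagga
SIN3A, first start, chr15:75455843-75456065, minus strand: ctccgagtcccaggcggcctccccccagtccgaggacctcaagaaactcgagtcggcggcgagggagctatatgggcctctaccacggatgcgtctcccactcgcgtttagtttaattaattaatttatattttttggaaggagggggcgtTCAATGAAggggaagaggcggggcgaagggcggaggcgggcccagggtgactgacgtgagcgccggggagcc
ATXN1L, only start, chr16:71845726-71845975, plus strand: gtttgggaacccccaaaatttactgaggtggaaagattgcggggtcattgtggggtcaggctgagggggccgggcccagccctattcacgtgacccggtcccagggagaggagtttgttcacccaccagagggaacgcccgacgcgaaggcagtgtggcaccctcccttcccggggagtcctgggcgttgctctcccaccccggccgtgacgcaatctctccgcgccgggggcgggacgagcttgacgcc

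The ATXN1 octamer, TGAATGAA, lay 100 to 93 bases before the second start, in a window with no exon in GENCODE 29. That window lies within the annotated span of ATXN1, downstream of the first start, whose own window held no octamer. Whether the second start is used in these cells was not tested. The SIN3A octamer, TCAATGAA, lay 99 to 92 bases before the first start. No octamer was found in the windows of ATXN1L, EP300, CREBBP, BRD2 or BRD3, which says only that these letters are not in those windows. Any of the 4 octamers was present in 3.18% of all 35116 windows, TGAATGAA in 1.4% and TCAATGAA in 0.635%. Among the 12204 tested genes with a window, 3.02% had an octamer before at least 1 start. Among genes called higher the share was 8.9% of 888 with CIC::DUX4, 6.73% of 1501 with CIC::NUTM1 and 10.7% of the 674 called higher with both. For genes called lower, the shares were 1.83% of 164 (CIC::DUX4) and 1.73% of 519 (CIC::NUTM1). Between the fusions the share was 4.46% of the 672 genes called higher with CIC::NUTM1 and 5.71% of the 210 called lower. These shares are a description of the calls, without a test.

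ATXN1 (ENSG00000124788, GRCh38 chr6:16299112-16761491, minus strand) encodes ataxin-1, which binds capicua directly. Its level was 25.5, 25.1 and 27.6 CPM in the 3 empty vector libraries. With CIC::DUX4 it was 49.97, 47.3 and 41.5 CPM, and with CIC::NUTM1 75.8, 59.6 and 80.1 CPM. The 3 groups did not overlap: every CIC::DUX4 library lay above every empty vector library, and every CIC::NUTM1 library above every CIC::DUX4 library. The log2 fold change from empty vector was 0.83 ± 0.10 (SE; edgeR adjusted p = 2.84e-06) with CIC::DUX4, a fold of 1.78 (95% interval 1.53 to 2.07). With CIC::NUTM1 it was 1.46 ± 0.10 (edgeR adjusted p = 2.28e-10), a fold of 2.75 (2.37 to 3.19). Tested directly, ATXN1 under CIC::NUTM1 was 1.55 times its level under CIC::DUX4 (1.34 to 1.79; log2 difference 0.63 ± 0.10, edgeR adjusted p = 0.000165). All 3 calls held in each of the 6 refits that left out 1 library. These levels rest on 446 to 1557 counts per library, and no annotated exon of another gene overlaps an ATXN1 exon.

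ATXN1L (ENSG00000224470, GRCh38 chr16:71845991-71885268, plus strand) encodes the ataxin-1-like protein, which also binds capicua. Its levels were 57.9, 62.0 and 59.9 CPM in empty vector. The CIC::DUX4 libraries had 64.7, 68.7 and 59.4 CPM, and the CIC::NUTM1 libraries 56.8, 59.3 and 55.3 CPM. Both fusion groups overlapped empty vector. The log2 fold change was 0.10 ± 0.08 (SE; 95% interval -0.06 to 0.26, edgeR adjusted p = 0.546) with CIC::DUX4 and -0.07 ± 0.08 (-0.23 to 0.09, edgeR adjusted p = 0.638) with CIC::NUTM1. A change of the size seen for ATXN1 lies outside both intervals. Between the fusions all 3 CIC::NUTM1 libraries lay below all 3 CIC::DUX4 libraries, with a log2 difference of -0.17 ± 0.08 that did not pass (edgeR unadjusted p = 0.043, adjusted p = 0.252). Between the fusions, groups did not overlap for 2 of the 7 genes, ATXN1 higher and ATXN1L lower with CIC::NUTM1, where this was so for 22% of tested genes (12.6% higher, 9.36% lower). The neighbour IST1 on the same strand and ZNF821 on the other each share 193 exon bases with ATXN1L, so reads there are uncertain.

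**Figure D1:**
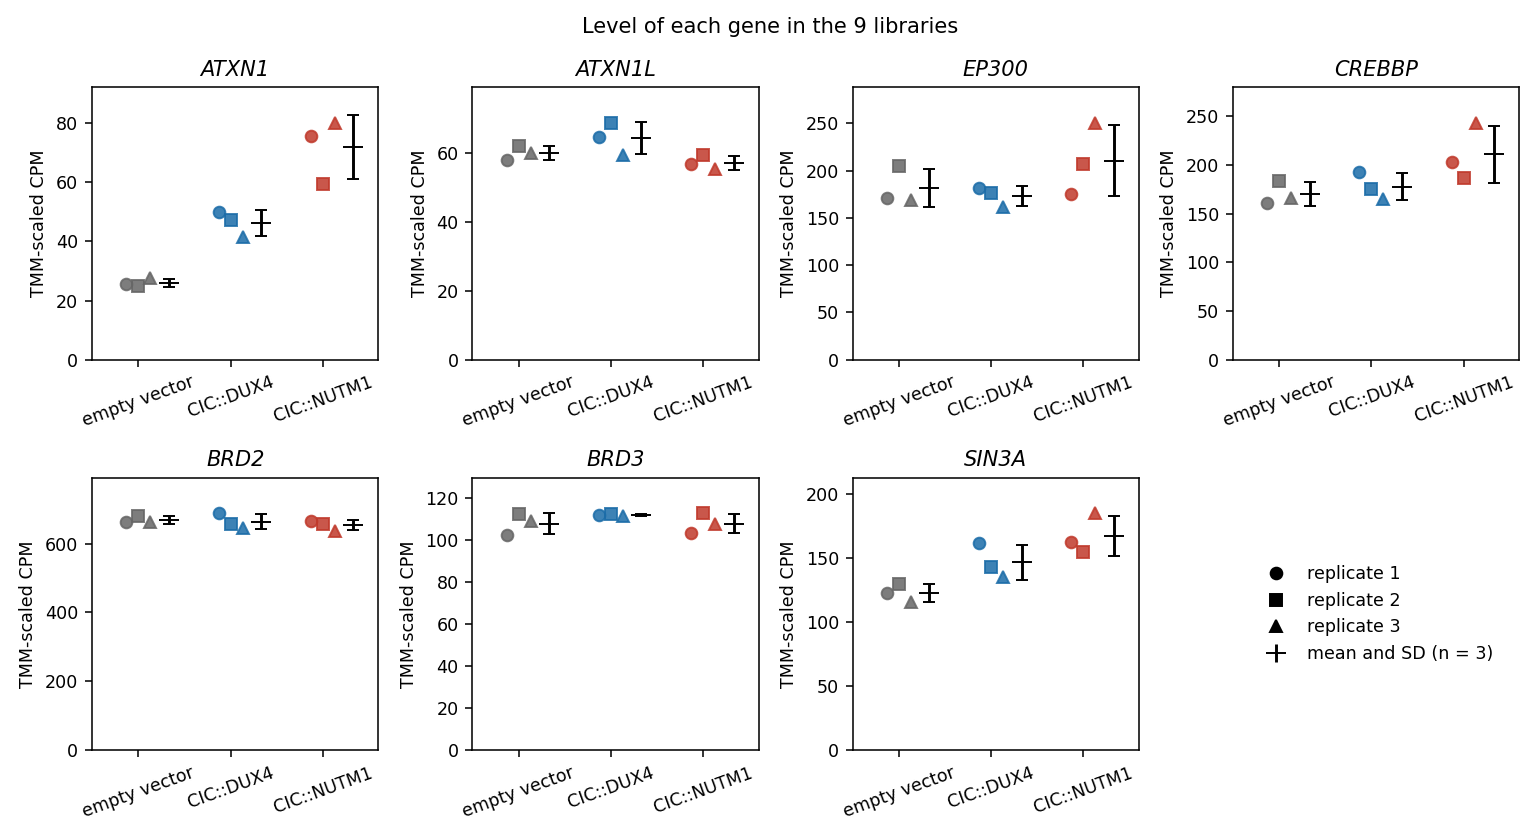
TMM-scaled CPM (vertical axes, from 0) of each of the 7 genes in the 9 libraries. Grey, blue and red points are empty vector, CIC::DUX4 and CIC::NUTM1, point shapes give the replicate number, and bars give the mean and SD of 3 libraries. The groups separate fully for ATXN1, SIN3A libraries of both fusions lie above all empty vector libraries, and the BRD2 and BRD3 groups overlap.

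The balance within the ataxin-1 family was followed as a ratio of counts per kilobase of exon within each library, which does not depend on library scaling. In empty vector ATXN1L exceeded ATXN1 by 4.73, 5.16 and 4.53 times. The CIC::DUX4 libraries had ratios of 2.698, 3.03 and 2.98, and the CIC::NUTM1 libraries 1.56, 2.07 and 1.44. The 3 groups did not overlap. The mean log2 ratio differed from empty vector by -0.73 with CIC::DUX4 and by -1.52 with CIC::NUTM1, and by -0.795 between the fusions. Each gave an exact two-sided permutation p of 0.1, the smallest that 3 against 3 libraries allow, and 0.225 after adjustment over the 9 ratio tests. The absolute ratio depends on the gene length used. With the longest transcript in place of all exon bases, an alternative chosen after the data were seen, its means were 3.10, 1.87 and 1.09 in the same order of groups, against 4.81, 2.90 and 1.69.

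**Figure D2:**
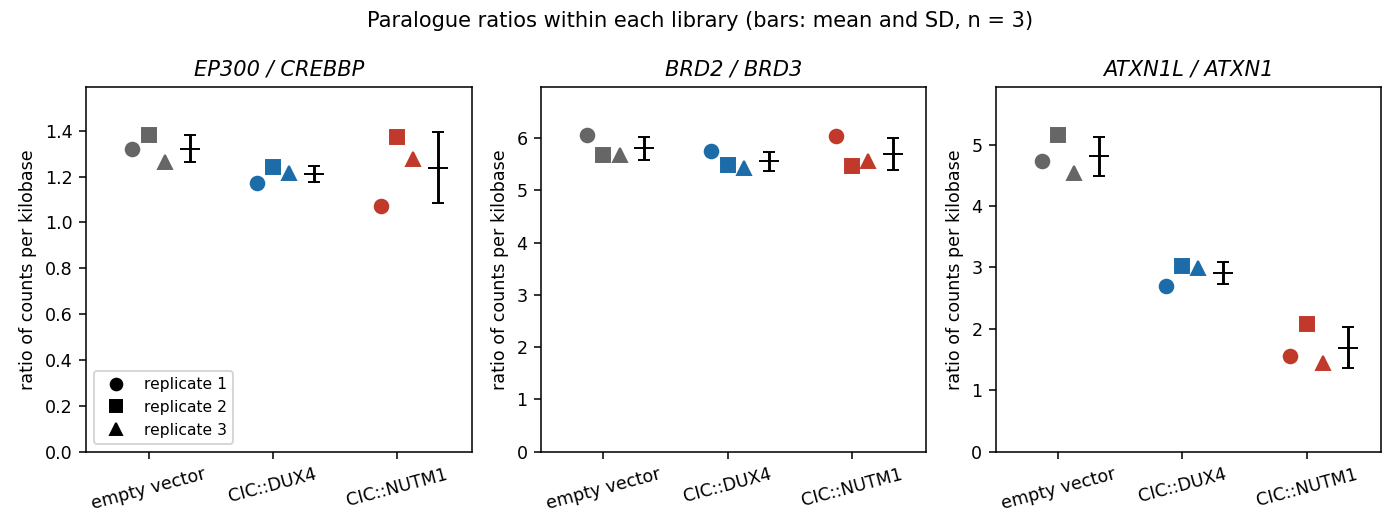
Ratios of counts per kilobase of exon (vertical axes, from 0) for EP300 over CREBBP, BRD2 over BRD3 and ATXN1L over ATXN1, by group. Points are single libraries, with shapes for the replicate number, and bars give the mean and SD of 3 libraries. The ATXN1L to ATXN1 ratio falls from about 4.81 in empty vector to 2.90 with CIC::DUX4 and 1.69 with CIC::NUTM1, with no overlap between groups.

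SIN3A (ENSG00000169375, GRCh38 chr15:75369379-75455842, minus strand) encodes the scaffold on which histone deacetylases are assembled. It was at 123, 130.0 and 116 CPM in empty vector. It had 162, 143 and 135 CPM in the CIC::DUX4 libraries, and in the CIC::NUTM1 libraries 163, 155 and 185 CPM. No fusion library fell as low as the highest empty vector library. Such a gap above empty vector was seen for 2 of the 7 genes with CIC::DUX4 and 3 with CIC::NUTM1, where 14.8% and 18.2% of tested genes were fully higher, and 25.7% and 31.1% did not overlap in either direction. The log2 fold change was 0.44 ± 0.08 (SE; edgeR adjusted p = 0.000128) with CIC::NUTM1, and this call held in all 6 refits without 1 library. With CIC::DUX4 it was 0.26 ± 0.08 (edgeR adjusted p = 0.0361). That call was lost without CIC::DUX4 replicate 1 (0.18, edgeR adjusted p = 0.319) or replicate 2 (0.27, 0.0676) and without empty vector replicate 1 (0.25, 0.0998) or replicate 3 (0.21, 0.221). The fusions overlapped, and their log2 difference of 0.19 ± 0.08 did not pass (95% interval 0.03 to 0.35, edgeR adjusted p = 0.171).

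EP300 and CREBBP encode the acetyltransferases that the NUTM1 and DUX4 regions are known to recruit. CREBBP (ENSG00000005339, GRCh38 chr16:3725054-3880726, minus strand) gave 161, 184 and 166 CPM in the empty vector libraries. The CIC::DUX4 libraries had 192, 175 and 164 CPM and overlapped these. With CIC::NUTM1 it was 203, 187 and 243 CPM, all above empty vector. The log2 fold change with CIC::NUTM1 was 0.31 ± 0.08 (SE; edgeR adjusted p = 0.0149). The call was lost in 3 of 6 refits without 1 library. The change was 0.17 without CIC::NUTM1 replicate 3 (edgeR adjusted p = 0.17). It was closer to the full fit without empty vector replicate 1 (0.27, edgeR adjusted p = 0.076) or replicate 3 (0.29, 0.0709). With CIC::DUX4 the log2 fold change was 0.06 ± 0.08 (95% interval -0.12 to 0.24, edgeR adjusted p = 0.773). The difference between the fusions, 0.25 ± 0.08, missed the threshold (edgeR adjusted p = 0.0917) and passed without CIC::NUTM1 replicate 2 (0.33, edgeR adjusted p = 0.014). Over the 6 refits without 1 library this difference ranged from 0.12 to 0.33, with an edgeR adjusted p up to 0.556.

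EP300 (ENSG00000100393, GRCh38 chr22:41091786-41180079, plus strand) varied more between replicates than any other of the 7 genes, with a coefficient of variation within groups of 12.7%. The empty vector libraries gave 171, 205 and 169 CPM, the CIC::DUX4 libraries 182, 176 and 161 CPM, and the CIC::NUTM1 libraries 175, 207 and 251 CPM. All 3 groups overlapped. The log2 fold change was -0.07 ± 0.12 (SE; 95% interval -0.33 to 0.18, edgeR adjusted p = 0.813) with CIC::DUX4. With CIC::NUTM1 it was 0.21 ± 0.12 (-0.04 to 0.47, edgeR adjusted p = 0.274). Between the fusions it was 0.28 ± 0.12 (edgeR adjusted p = 0.209). Without CIC::NUTM1 replicate 1, EP300 passed against empty vector (0.33, edgeR adjusted p = 0.0199) and between the fusions (0.40, edgeR adjusted p = 0.00958). This was 1 of 6 refits without 1 library in each comparison. Over the 6, the CIC::NUTM1 change from empty vector ranged from 0.050 to 0.33, with an edgeR adjusted p up to 0.794. The difference between the fusions ranged from 0.13 to 0.40, with an edgeR adjusted p up to 0.579. The EP300 to CREBBP ratio per kilobase was 1.32, 1.38 and 1.26 in empty vector, 1.17, 1.24 and 1.21 with CIC::DUX4 and 1.07, 1.37 and 1.28 with CIC::NUTM1. It was lower in all 3 CIC::DUX4 libraries than in empty vector, with a log2 difference of -0.13 (exact permutation p = 0.1, the smallest possible, 0.225 adjusted), and overlapped in the other comparisons.

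The library CIC::NUTM1 replicate 3 had the highest level of all 9 for ATXN1, SIN3A, CREBBP and EP300, and the lowest for BRD2 and ATXN1L. Over the 9 libraries, which include the group differences, the Pearson correlation of log2 CPM was 0.925 between ATXN1 and SIN3A, 0.892 between CREBBP and SIN3A, and 0.822 between EP300 and CREBBP. Between ATXN1 and ATXN1L it was -0.253. These are 4 of 21 pairs over the same 9 libraries and are given as a description. Without CIC::NUTM1 replicate 3, ATXN1 and SIN3A kept their calls against empty vector with CIC::NUTM1.

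BRD2 and BRD3, the BET genes of the group, stayed close to their empty vector levels. BRD2 (ENSG00000204256, GRCh38 chr6:32968660-32981505, plus strand) had 662, 680.4 and 661 CPM in the control libraries. The CIC::DUX4 libraries gave 687, 657 and 646 CPM and the CIC::NUTM1 libraries 666, 658 and 637 CPM, so the groups overlapped. With 10976 to 23239 counts per library and a variation within groups of 2.48%, it was the most precisely measured of the 7. Its log2 fold change was -0.01 ± 0.05 (SE; 95% interval -0.11 to 0.09, edgeR adjusted p = 0.953) with CIC::DUX4 and -0.03 ± 0.05 (-0.13 to 0.07, edgeR adjusted p = 0.758) with CIC::NUTM1. Both intervals exclude a change of the size seen for SIN3A with CIC::NUTM1.

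BRD3 (ENSG00000169925, GRCh38 chr9:134030305-134068535, minus strand) can itself be fused to NUTM1 in NUT carcinoma. Control libraries gave 102, 112 and 109 CPM, CIC::DUX4 libraries 112, 112 and 112 CPM, and CIC::NUTM1 libraries 103, 113 and 107.5 CPM. All 3 groups overlapped. The log2 fold change was 0.05 ± 0.07 (SE; 95% interval -0.09 to 0.19, edgeR adjusted p = 0.743) with CIC::DUX4 and -0.00039 ± 0.07 (-0.14 to 0.14, edgeR adjusted p = 0.998) with CIC::NUTM1. The BRD2 to BRD3 ratio per kilobase lay between 5.43 and 6.06 in all 9 libraries and overlapped in each comparison (exact permutation p = 0.3, 0.5 and 0.6). Of the exon bases of BRD3, 1281 are also exon of BRD3OS on the other strand, which was at 41.8, 44.6 and 34 CPM (means of empty vector, CIC::DUX4 and CIC::NUTM1). Libraries were directional, but the use of strand by the counting step is not given, so reads in that stretch are uncertain.

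**Figure D3:**
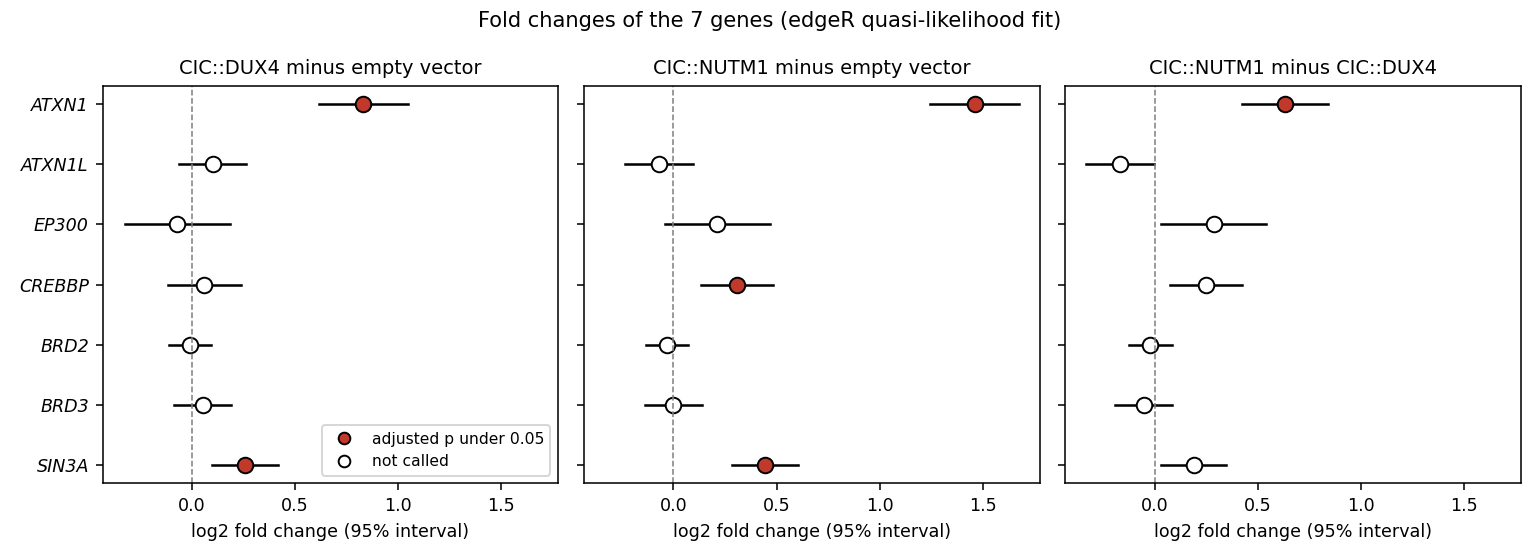
Log2 fold changes (horizontal axes) of the 7 genes in the 3 comparisons, with 95% intervals from the edgeR fit. Filled points passed an adjusted p of 0.05. ATXN1 passes in all 3 panels, SIN3A in the first 2, CREBBP with CIC::NUTM1 against empty vector, and the BRD2 intervals all stay within -0.13 to 0.09.

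Levels of different genes were compared as TPM, here counts per kilobase of exon scaled to the same sum in each library. In empty vector the order was BRD2 (362 ± 13.7 TPM, SD, n = 3), BRD3 (62.4 ± 4.199), EP300 (57.9 ± 7.73), CREBBP (43.7 ± 4.12), SIN3A (39.3 ± 2.95), ATXN1L (27.9 ± 1.57) and ATXN1 (5.82 ± 0.268). BRD3 and EP300 overlapped, as did CREBBP and SIN3A, and the other neighbours did not. BRD2 was above 97.7% of tested genes and ATXN1 above 35.1%, where tested genes without an annotated exon length counted as 0 TPM, which raises both shares. With CIC::NUTM1, ATXN1 reached 15.7 ± 2.32 TPM and was still the lowest of the 7. With the longest transcript as length, BRD2 stayed first and ATXN1L and ATXN1 last in each group, while the order of the genes between them changed. The median log2 fold change of the 7 genes was 0.06 (CIC::DUX4 against control), 0.21 (CIC::NUTM1 against control) and 0.19 (between fusions), beside -0.00145, -0.000863 and -0.00528 over all tested genes. Regardless of sign, the median log2 fold change of the 7 genes was 0.072, 0.213 and 0.188 in the same order. Over all tested genes it was 0.149, 0.184 and 0.153. The comparisons with empty vector share their control libraries, so the values are given side by side.

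Other subunits and partners were counted from 5 lists of 46 genes, of which 45 were tested. The lists were chosen with earlier results of these data known, so their counts beside the shares of all tested genes are a description. Under CIC::DUX4 there were 3 higher (6.67%, against 6.96% of all tested genes) and 1 lower. The count of higher calls was 0 without CIC::DUX4 replicate 1, and 1 without CIC::DUX4 replicate 2 or without empty vector replicate 1 or 3. With CIC::NUTM1, 9 were higher (20%, against 11.5% of all tested genes) and 2 lower, and refits without 1 library gave 7 to 9 higher and 0 to 2 lower. Between the fusions 6 were higher with CIC::NUTM1 (13.3%, against 4.97%) and 0 with CIC::DUX4. Without CIC::NUTM1 replicate 3 or CIC::DUX4 replicate 3 the 6 became 4, and with DESeq2 or without CIC::NUTM1 replicate 2 the 0 became 1, a CITED gene. The untested gene was the testis BET gene BRDT, which had 0 counts in empty vector and at most 10 in any library. Of the 41 list genes with a RefSeq window 0 held a capicua octamer, which is near the 3.02% of tested genes that did.

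The SIN3 complex genes other than SIN3A numbered 17. With CIC::NUTM1, 4 rose (23.5%, against 11.5% of all tested genes), 1 fell (5.88%, against 3.83%) and 12 did not pass. With CIC::DUX4, 1 rose (5.88%, near the 6.96% of all tested genes), 1 fell (against 1.27%) and 15 did not pass. With CIC::NUTM1 the largest rises in this list were those of ARID4A and ARID4B, paired subunits with chromatin-binding domains. ARID4B averaged 65.1 ± 5.48 CPM (SD, n = 3) in the controls, 70.6 ± 4.75 under CIC::DUX4 and 115 ± 14.6 under CIC::NUTM1. Under CIC::DUX4 its log2 fold change of 0.12 did not pass (edgeR adjusted p = 0.531). The direct difference was 0.70 ± 0.09 on the log2 scale (SE; edgeR adjusted p = 5.69e-06). ARID4A went from 23.7 ± 3.26 to 31.8 ± 5.51 and 43.7 ± 4.60 CPM (log2 fold changes 0.42 and 0.87, edgeR adjusted p = 0.0346 and 1.3e-05). The smaller change of ARID4A lost its call in 4 of 6 refits without 1 library, namely without empty vector replicate 1 (0.35, edgeR adjusted p = 0.15) or 3 (0.38, 0.166) and CIC::DUX4 replicate 1 (0.32, 0.262) or 2 (0.38, 0.129). SINHCAF, a subunit of the SIN3 complex, rose from 99.9 ± 2.18 to 139.8 ± 5.34 CPM with CIC::NUTM1. SAP130 rose by 0.26 with CIC::NUTM1 (edgeR adjusted p = 0.0244), a call lost in 4 of 6 refits without 1 library and with library totals (adjusted p = 0.0595) or upper quartile factors (0.0555). The histone-binding subunit RBBP7 fell by 0.27 with CIC::DUX4 and by 0.19 with CIC::NUTM1 (edgeR adjusted p = 0.00135 and 0.018), the second lost in 3 of 6 refits. The deacetylases HDAC1 and HDAC2 and the paralogue SIN3B did not pass in any comparison, with log2 fold changes from empty vector between -0.09 and 0.13.

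None of the 5 genes counted for the NCoR corepressor complex, which ataxin-1 also contacts, passed in any comparison. Of all tested genes, 8.24% (CIC::DUX4), 15.3% (CIC::NUTM1) and 6.61% (between the fusions) were called. With 5 genes, a count of 0 is near those shares. NCOR1, its scaffold, had log2 fold changes of -0.08 with each fusion (edgeR adjusted p = 0.68 and 0.609).

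Among the 9 tested genes of BET partners and elongation factors, 1 rose with each fusion and 0 fell, a share of 11.1% that is near the 6.96% (CIC::DUX4) and 11.5% (CIC::NUTM1) of all tested genes. It was CCNT2, a cyclin of the elongation kinase P-TEFb, at 36.0 ± 3.23 CPM (SD, n = 3) in the controls, 44.5 ± 4.58 under CIC::DUX4 and 47.4 ± 1.99 under CIC::NUTM1. Its log2 fold changes were 0.30 and 0.39 (edgeR adjusted p = 0.0475 and 0.00482). The first was lost in 4 of 6 refits without 1 library and in 5 of 11 other settings, where adjusted p reached 0.0561. Its kinase CDK9, the inhibitor HEXIM1 and the histone methyltransferase gene NSD3 had log2 fold changes from empty vector between 0.01 and 0.10 and did not pass. ZMYND8 and ZNF532 lay lower with CIC::NUTM1 (log2 fold changes -0.21 and -0.22) and did not pass (edgeR adjusted p = 0.0942 and 0.169). Genes of this list called lower with CIC::NUTM1 became 1 with library totals, upper quartile factors, and GC content and length offsets. The replicate block with those offsets also gave 1. Those called higher became 2 without an abundance filter or without CIC::NUTM1 replicate 1.

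Of 11 other acetyltransferase genes, 1 rose with CIC::DUX4 (9.09%, near the 6.96% of all tested genes). With CIC::NUTM1, 3 rose (27.3%, against 11.5%) and 1 fell (9.09%, against 3.83%). KAT6B rose with both, by 0.41 ± 0.10 and 0.43 ± 0.10 (SE, log2; edgeR adjusted p = 0.00568 and 0.0025), the first lost without CIC::DUX4 replicate 1 (0.28, edgeR adjusted p = 0.122). HAT1, which acetylates new histones, rose by 0.36 ± 0.08 and NCOA3 by 0.34 ± 0.11 with CIC::NUTM1 (edgeR adjusted p = 0.00141 and 0.0371), the latter lost in 3 of 6 refits and with library totals (0.0735) or upper quartile factors (0.0583). KAT2B, which encodes PCAF, went from 26.5 ± 1.05 to 20.7 ± 0.933 CPM with CIC::NUTM1 (log2 fold change -0.36, edgeR adjusted p = 0.0212), a call lost in 3 of 6 refits. Its level under CIC::DUX4 was close to this, 21.4 ± 1.05 CPM (log2 fold change -0.31, edgeR adjusted p = 0.0739), and the fusions differed by -0.05 (edgeR adjusted p = 0.88). The number of genes of this list called lower with CIC::DUX4 was 1 in place of 0 with DESeq2, with GC content and length offsets and with only the 2 groups compared. Of the 3 CITED genes, whose proteins bind p300 and CBP, CITED2 rose from 74.5 ± 1.71 to 109 ± 12.2 CPM with CIC::NUTM1 (edgeR adjusted p = 1.29e-05) and was at 73.3 ± 3.73 CPM with CIC::DUX4. The fusions differed by 0.57 ± 0.08 on the log2 scale (SE), at an edgeR adjusted p of 2.47e-05. CITED4 lay the other way between the fusions, at 9.55 ± 1.47 CPM under CIC::DUX4 and 6.35 ± 1.18 CPM under CIC::NUTM1, and did not pass (-0.57 ± 0.19, edgeR adjusted p = 0.0747).

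**Figure D4:**
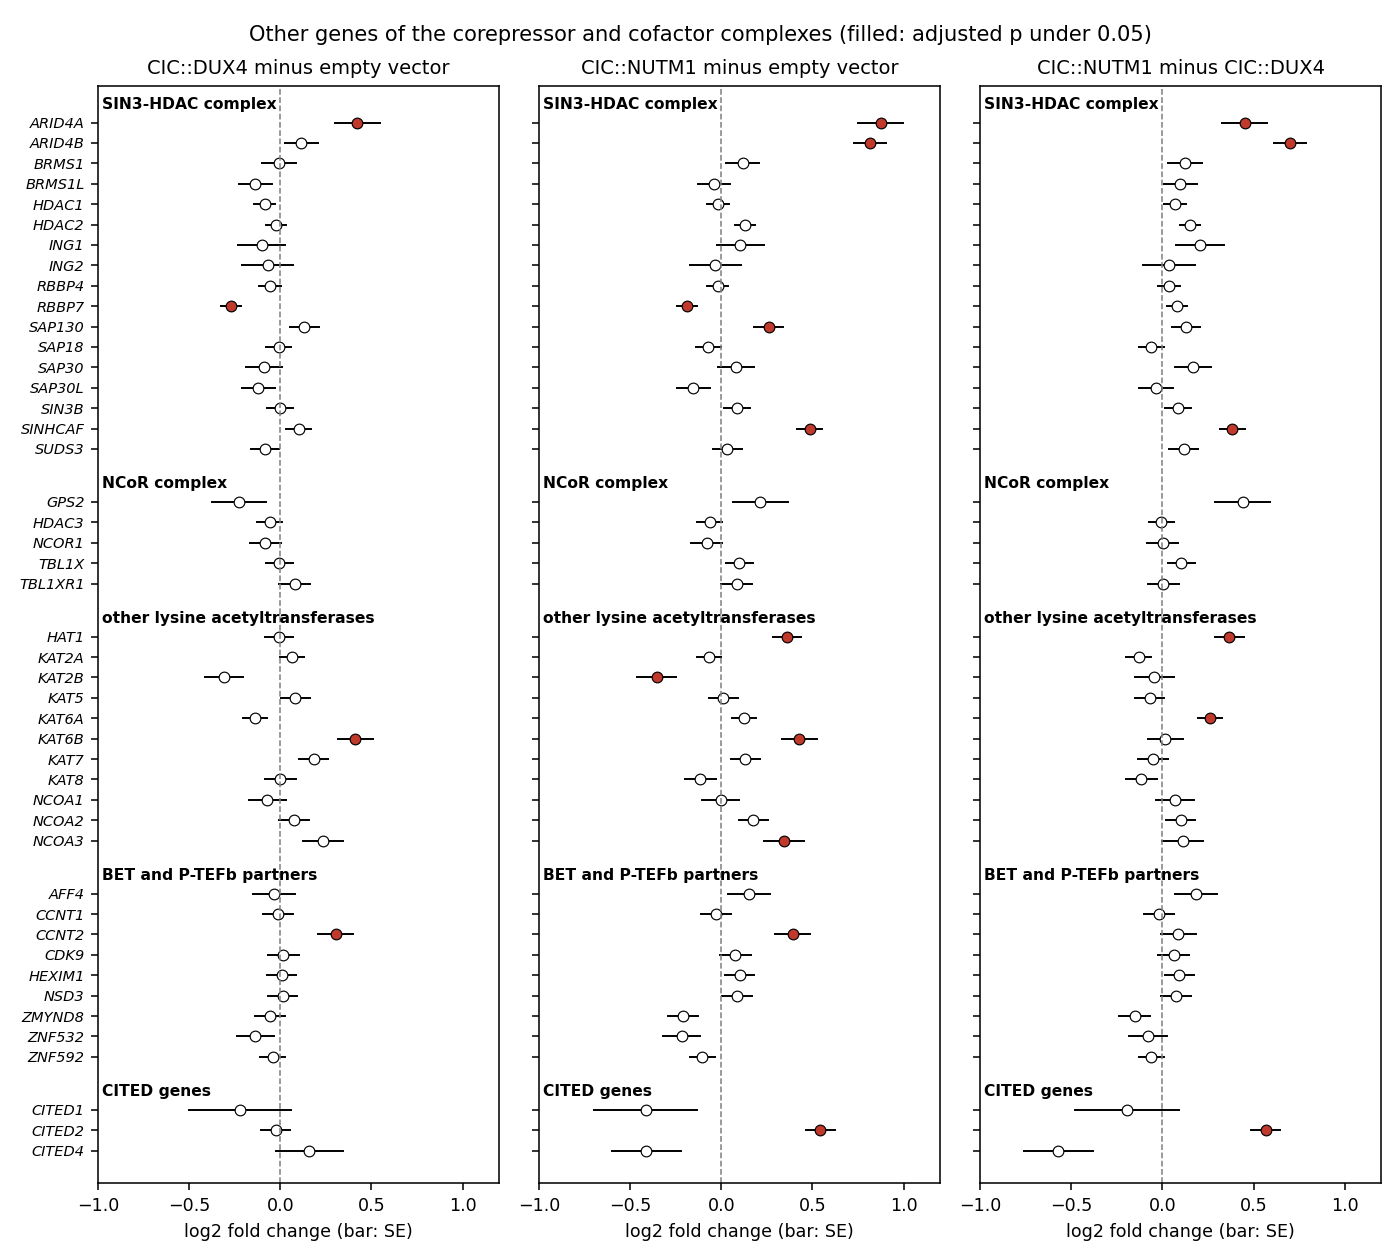
Log2 fold changes with SE bars (horizontal axes) of the 45 tested genes of the 5 lists in the 3 comparisons. Filled points passed an adjusted p of 0.05 in edgeR. ARID4A, ARID4B, SINHCAF and CITED2 stand to the right with CIC::NUTM1, CCNT2 is filled with both fusions, and the NCoR complex genes are all open.

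The 2 genes most like each of the 7 over the 9 libraries were found by Pearson correlation of log2 CPM, as a description. ATXN1 was most like ADAMTS18 (r = 0.996), a secreted metalloprotease gene, and the circadian gene PER2 (r = 0.993). PER2 was at 12.6, 30.8 and 52.9 CPM and ADAMTS18 at 0.644, 3.72 and 10.4 CPM (means of empty vector, CIC::DUX4 and CIC::NUTM1), so both had the same stepwise order of groups as ATXN1. SIN3A was most like MTRF1L (0.991) and NOP58 (0.989), CREBBP most like PPP4R3A (0.979) and NFE2L2 (0.973), and EP300 most like KMT2C (0.983) and ZFHX4 (0.97). For the genes that moved little, the closest were TMEM154 and NDUFA6-DT for ATXN1L (0.934 each), ANKRD10 (0.966) and DRAXIN (0.944) for BRD2, and RPL21P16 (0.933) and MAGEA3-DT (0.928) for BRD3. Group means were near the floor for TMEM154 (0.117 to 0.556 CPM), DRAXIN (0.563 to 0.985 CPM) and MAGEA3-DT (0.399 to 0.606 CPM). NDUFA6-DT (2.29 to 3.2 CPM) and RPL21P16 (1.84 to 2.22 CPM) were also low. The correlations are over 9 libraries that share the group structure.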

How the data were processed

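The authors' deposited tables hold, for the 9 libraries, unnormalised counts for each Ensembl gene, and log2 CPM for 15811 named genes. STAR 2.7.10b, R 4.2.2, edgeR 3.40.2 and build GRCh38 are named in the submitters' processing notes. The counting program, annotation and use of strand are not given in the sources used here. Columns were matched to samples by library name. Symbols came from a gene name table (62622 of 62700 IDs), and positions, exon lengths and overlaps from GENCODE 29.

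The main test was the quasi-likelihood test of edgeR 4.0.16 (R 4.3.3), after filterByExpr on groups (17576 of 34765 genes with a count), TMM scaling, 1 mean per group and a robust quasi-likelihood fit to all 9 libraries (biological coefficient of variation 10.1%). A call required an adjusted p (Benjamini-Hochberg, all tested genes) under 0.05. SE was obtained as |log2 change| over √F. CPM are TMM-scaled. The deposited log2 CPM equalled values computed here with a prior count of 2 (largest difference 4.97e-14 over genes with over 100 counts). P-values measure the spread between libraries from separate transfection days of 1 cell line. Counting reads without molecular identifiers covers counting error only.

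Alternatives were DESeq2 size factors, library totals or upper quartile scaling, no filter, a minimum of 10 counts per library, the DESeq2 1.42.0 test, limma 3.58.1 on the deposited log2 CPM, only the groups compared, a replicate block, offsets for GC content and length (96.9% of tested genes had both), and leaving out each library. Fits were tested on simulated data. Members and lists were chosen with earlier results of these data known. Named genes were all 7, up to 4 called genes per list and direction, and the 2 most alike per gene. HDAC1, HDAC2, SIN3B, NCOR1, CDK9, HEXIM1, NSD3, ZMYND8, ZNF532 and CITED4, which were not called, were named after their values were seen. Some genes of the lists are not reported here and were left out of the counts. Figures were drawn with matplotlib 3.10.9.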

Additional observations from a re-analysis of the deposited data

Results flagged for a closer look

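Levels under the 2 fusions differed by the direct test for ATXN1 and 6 genes of the lists, each with the greater level under CIC::NUTM1 (edgeR, adjusted p under 0.05). Of all tested genes, 4.97% were higher and 1.64% lower with CIC::NUTM1 than with CIC::DUX4. Of all calls between the fusions, 75.2% thus lay in the same direction, or 61.4% with library totals. The log2 difference was 0.63 for ATXN1 (adjusted p = 0.000165), 0.70 for ARID4B (5.69e-06), 0.57 for CITED2 (2.47e-05), 0.45 for ARID4A (0.025), 0.38 for SINHCAF (0.00052), 0.37 for HAT1 (0.00291) and 0.26 for KAT6A (0.0144). ARID4A lost this call in 4 of 6 refits without 1 library (log2 difference 0.32 to 0.55) and KAT6A in 2 of 6 (0.22 to 0.29). Both also lost it with library totals (edgeR adjusted p = 0.0541 and 0.0521), and KAT6A with only the 2 groups (0.0501). The other 5 kept it in all 6. Transcripts of the fusions are not analysed here, and whether their amounts or uptake differed was not tested.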

How the results depend on the processing

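The calls of ATXN1, SIN3A and CREBBP against empty vector, and of ATXN1 between the fusions, were kept under all 11 alternatives other than leaving out a library. The SIN3A call with CIC::DUX4 had adjusted p of 0.0115 to 0.0498 there, and CREBBP with CIC::NUTM1 0.000764 to 0.0447. Without an abundance filter EP300 and CREBBP also passed between the fusions (log2 differences 0.28 and 0.25, edgeR adjusted p = 0.00207 and 0.0123), so that 3 of 7 genes were higher, and the cause was not tested. The BRD3 difference with CIC::NUTM1, -0.00039, turned sign to 0.0029 with at least 10 counts in every library, 0.0036 with GC content and length offsets, 0.0039 with those offsets and the replicate block, 0.00015 with limma-trend and 0.0017 with only the groups compared. It stayed uncalled.

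Over all genes, the number lower with CIC::DUX4 was 224, and it was 380 without a filter, 388 with GC content and length offsets, 461 with those and the replicate block, and 407 with only the 2 groups. The number higher was 1224, or 774 with at least 10 counts in every library. Lower genes with CIC::NUTM1 numbered 673, against 1138 with library totals, 1124 with upper quartile factors, 1090 with offsets and 1185 with offsets and block. Those higher with CIC::DUX4 than CIC::NUTM1 numbered 288, against 437 with library totals, 434 with offsets and 503 with offsets and block. Genes higher with CIC::NUTM1 numbered 2018 (75% of calls), against 1783 (61%) with library totals and 1807 (61.7%) with upper quartile factors, and between the fusions 874 (75.2%), against 695 (61.4%) with library totals and 753 (66.5%) with upper quartile factors. The cause was not tested.

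Leaving out 1 library gave ranges of log2 differences with CIC::DUX4 of 0.77 to 0.90 for ATXN1, 0.05 to 0.15 for ATXN1L, -0.12 to 0.024 for EP300, -0.0028 to 0.12 for CREBBP, -0.037 to 0.0076 for BRD2, 0.01 to 0.08 for BRD3 and 0.18 to 0.31 for SIN3A. With CIC::NUTM1 they were 1.35 to 1.58, -0.10 to -0.05, 0.050 to 0.33, 0.17 to 0.39, -0.05 to -0.02, -0.039 to 0.028 and 0.35 to 0.50 in the same order. Between the fusions they were 0.53 to 0.75, -0.22 to -0.12, 0.13 to 0.40, 0.12 to 0.33, -0.041 to 0.0046, -0.09 to -0.02 and 0.10 to 0.26. The genes called of the 7 ranged over 1 to 2 with CIC::DUX4, 2 to 4 with CIC::NUTM1 and 1 to 2 between the fusions. Over all genes, higher and lower calls ranged over 805 to 1258 and 60 to 229 with CIC::DUX4, 1625 to 2134 and 278 to 977 with CIC::NUTM1, and 516 to 940 and 156 to 324 between the fusions.

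The 9 pairs of libraries with the same replicate number had correlations of deviations of -0.0308 to 0.0753 (Pearson, none over 0.1). The other pairs between groups had -0.108 to 0.0698, so the ranges overlapped. Of the 9 libraries, 7 correlated best with their own number, at most a weak hint that they may share something. The labels do not say that a number marks the same day in each group, so the numbers were not treated as pairs. With the replicate number as a block the calls of the 7 genes numbered 2, 3 and 1 as without it. All genes then gave 1222 higher and 250 lower for CIC::DUX4, 2012 and 727 for CIC::NUTM1 and 894 and 307 between the fusions. Of the 7 genes ATXN1 had the fewest reads, 446 counts in its lowest library.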
